A study of Homo sapiens with 16 samples.

Results

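In the circadian clock of mammalian cells, BMAL1 and its partner CLOCK bind short DNA elements called E-boxes (CACGTG) and switch on genes that include their own repressors. The subject here is the set of 897 recurrent BMAL1 regions, the stretches of the genome at which a BMAL1 peak was called in 10, 11 or 12 of 12 peak lists. They were chosen by the called peaks alone: all peaks of the 12 lists that overlapped by 1 bp or more were merged, which gave 20968 regions, and those with a peak in 10 or more lists were kept. The number of lists per region is therefore a description and not a finding.

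The lists came from chromatin immunoprecipitation and sequencing of U2OS, a human osteosarcoma cell line. The line labelled U2OS_CHR, named U2OS-CHRONO in the series design, was set against U2OS_WT. Cells of both lines were treated with 200 nM dexamethasone, a glucocorticoid that brings the clocks of a culture into step. Collection began 4 h ahead of the low point of a BMAL1 promoter luciferase rhythm, with 1 BMAL1 library per line at each of 6 labelled times: 0, 4, 8, 12, 16 and 20 h. A further U2OS_CHR library was precipitated with a Myc antibody, has no time or treatment label, and is said in the series design to target Myc-CHRONO. How CHRONO was introduced, and whether the line is 1 clone, is not given in the sources used here, and 3 input libraries were not analysed here. There is 1 library per line and time, so every test measures the spread over these libraries alone. Read depth is unknown.

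The genes that the BMAL1 and CLOCK pair activates include the PER and CRY genes, whose proteins feed back on the pair. They also include NR1D1 and NR1D2, whose products repress BMAL1 itself, and DBP, TEF and HLF, whose products drive output genes. CHRONO, the product of the clock gene CIART, is itself a repressor of the BMAL1 and CLOCK pair. MYC and several other factors bind the same CACGTG element.

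The sequences below are the 250 bases before a listed start of 7 genes that lie in regions with a peak in all 12 lists. They are examples from the comparison of the 2 lines, which used the order of scores and no sequence. CACGTG is in capitals, as is CACGTT on either strand, a variant with 1 changed base. They come from RefSeq (GRCh38.p14) and read 5′ to 3′ on the strand of the gene. TEF and BHLHE40 stand for regions among the highest scores in both lines. The highest TEF peak was centred a median of 726.5 bases before the start in U2OS_CHR and 644.5 in U2OS_WT. For BHLHE40 the medians were 460 bases in U2OS_CHR and 389 in U2OS_WT. These centres lie outside the bases shown.
TEF (chr22:41381692-41381941, plus strand): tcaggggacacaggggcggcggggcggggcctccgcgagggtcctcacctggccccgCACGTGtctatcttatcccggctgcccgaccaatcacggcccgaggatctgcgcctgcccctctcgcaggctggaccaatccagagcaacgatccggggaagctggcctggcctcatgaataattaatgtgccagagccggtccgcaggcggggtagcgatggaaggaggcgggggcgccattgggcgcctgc
BHLHE40 (chr3:4979187-4979436, plus strand): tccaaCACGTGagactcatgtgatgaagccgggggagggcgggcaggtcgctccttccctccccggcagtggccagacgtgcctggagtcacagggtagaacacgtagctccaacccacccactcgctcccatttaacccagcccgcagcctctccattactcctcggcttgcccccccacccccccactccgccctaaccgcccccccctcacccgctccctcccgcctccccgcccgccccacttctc
PER1, CRY1 and BLOC1S3 stand for regions that ranked lower in U2OS_CHR than in U2OS_WT.
PER1 (chr17:8152405-8152654, minus strand): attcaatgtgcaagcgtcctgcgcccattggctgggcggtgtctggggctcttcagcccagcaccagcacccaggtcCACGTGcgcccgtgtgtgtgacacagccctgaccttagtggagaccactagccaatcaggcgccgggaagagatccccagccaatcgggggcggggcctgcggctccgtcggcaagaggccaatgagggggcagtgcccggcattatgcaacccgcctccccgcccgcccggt
CRY1 (chr12:107093550-107093799, minus strand): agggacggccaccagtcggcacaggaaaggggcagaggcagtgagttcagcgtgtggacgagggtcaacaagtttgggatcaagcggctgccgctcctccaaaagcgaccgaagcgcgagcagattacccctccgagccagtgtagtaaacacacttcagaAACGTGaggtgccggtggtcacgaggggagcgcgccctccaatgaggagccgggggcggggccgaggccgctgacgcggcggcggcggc
BLOC1S3 (chr19:45178534-45178783, plus strand): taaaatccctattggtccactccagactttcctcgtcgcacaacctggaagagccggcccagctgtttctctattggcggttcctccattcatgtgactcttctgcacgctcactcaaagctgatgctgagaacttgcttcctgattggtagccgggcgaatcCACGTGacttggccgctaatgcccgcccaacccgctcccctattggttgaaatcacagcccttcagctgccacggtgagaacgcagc
CDK4 and CLUAP1 stand for regions that ranked higher in U2OS_CHR than in U2OS_WT.
CDK4 (chr12:57752311-57752560, minus strand): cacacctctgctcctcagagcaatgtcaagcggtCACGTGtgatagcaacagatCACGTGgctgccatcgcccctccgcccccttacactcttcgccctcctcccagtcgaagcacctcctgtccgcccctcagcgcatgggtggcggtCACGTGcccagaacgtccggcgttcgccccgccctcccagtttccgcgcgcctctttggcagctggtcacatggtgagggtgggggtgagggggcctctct
CLUAP1 (chr16:3500754-3501003, plus strand): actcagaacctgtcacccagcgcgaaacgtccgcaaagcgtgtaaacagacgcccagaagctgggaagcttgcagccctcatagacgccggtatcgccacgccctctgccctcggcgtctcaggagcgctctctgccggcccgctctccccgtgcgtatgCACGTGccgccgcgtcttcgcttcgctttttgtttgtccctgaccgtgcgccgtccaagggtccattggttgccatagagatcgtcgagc
The first base of a CACGTG element lay 193 bases before the start of TEF, 245 before that of BHLHE40, 173 before that of PER1, 87 before that of BLOC1S3 and 90 before that of CLUAP1. CDK4 had 3 of them, at 216, 196 and 101 bases. CRY1 had no CACGTG in this window and 1 CACGTT on the other strand, at 89 bases. The elements thus occur on both sides of the comparison of the lines.

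Of the 897 regions, 167 had a peak in all 12 lists, 387 in 11 and 343 in 10. Just outside the rule, 373 regions had a peak in 9 lists, and 11911 of all merged regions had one in a single list. Peaks of regions with 10 lists stood at a median score percentile of 79.8 within their list, against 72.9 for regions with 9 lists and 95.2 for those with 12. The regions spanned a median of 827 bp (409 to 4963 bp). The median was 1211 bp with 12 lists, 831 bp with 11, 694 bp with 10, 642 bp with 9 and 280 bp with 1.

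U2OS_CHR had a peak in 895, 897, 814, 874, 895 and 896 of the recurrent regions at 0, 4, 8, 12, 16 and 20 h. U2OS_WT had one in 875, 894, 193, 706, 856 and 896. At 8 h both lines had their lowest number, and the U2OS_WT list of that time, with 337 peaks in all, lacked 704 of the 897 regions. For 370 regions it was the 1 list without a peak. Of the 373 regions with 9 lists, 370 lacked it too. With 8 h left out and a peak required in 8 of the other 10 lists, 1486 regions qualified, so the size of the set rests on that time.

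**Figure D1:**
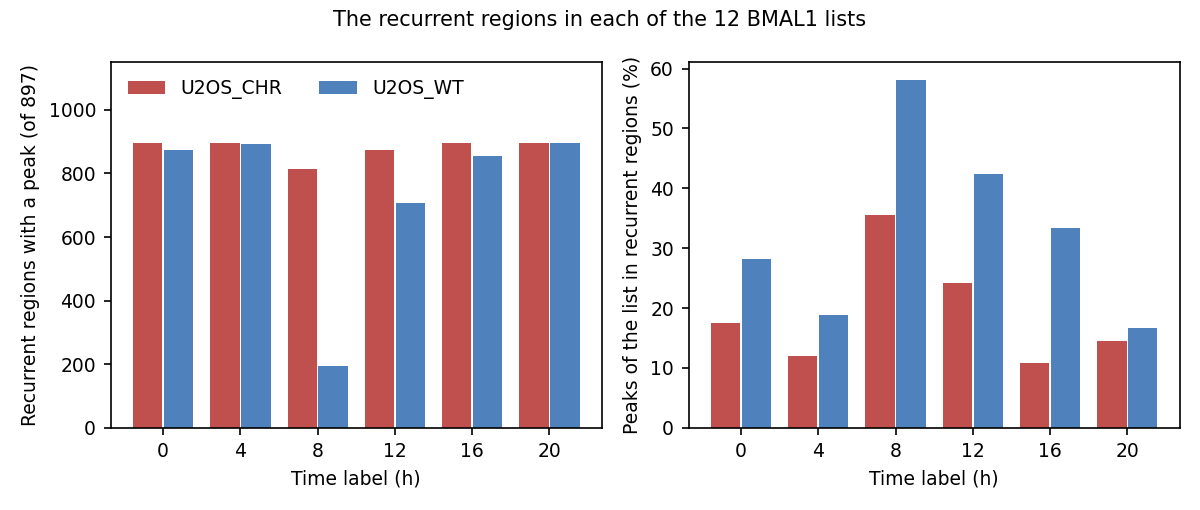
Recurrent BMAL1 regions in each list, U2OS_CHR (red) left of U2OS_WT (blue) at each of the 6 labelled times in hours. Left, how many of the 897 regions had a peak, with 814 and 193 at 8 h; right, the share of each list's peaks that fell in these regions, in percent (10.8 to 35.5% in U2OS_CHR and 16.7 to 58.2% in U2OS_WT).

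Most of the highest-scoring peaks of every list fell in the recurrent regions. The score percentile rose with the number of lists, which the rule used, so these shares are a description and not a finding. Of the 100 highest-scoring peaks of a list, 99 to 100 fell in recurrent regions in U2OS_CHR and 93 to 99 in U2OS_WT. The regions took 10.8 to 35.5% of all peaks of a U2OS_CHR list and 16.7 to 58.2% of a U2OS_WT list, with larger shares in the shorter lists. A peak was called in all 6 U2OS_CHR lists at 790 of the regions and in all 6 U2OS_WT lists at 182. The second count is limited by the short U2OS_WT list of 8 h, which had a peak in 193 of the regions.

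The regions lay both at genes and far from them. A gene end, meaning either end of a protein-coding gene, stood within 1 kb of 285 of the 897 regions (31.8%, Wilson 95% interval 28.8 to 34.9%). The share was 42.5% with 12 lists, 27.1% with 11, 31.8% with 10 and 29.2% with 9, so only the regions with 12 lists stood apart. It was 26.2% among regions with 7 to 9 lists and 19.5% over all merged regions. A further 289 regions (32.2%) were centred inside a gene, and 323 (36.0%) lay outside genes. Of these, 275 were more than 5 kb from any gene end. Measured from the region's centre the gene-end share was 29.7%, against 26.3% with 9 lists, 24.2% with 7 to 9 and 18.2% over all merged regions. In 42 places 2 or more of them stood within 20 kb of each other, and the one place with 3 was at NR1D1.

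Of 20033 protein-coding genes, 339 (1.69%) had a recurrent region within 1 kb of an end and, of 21 core clock genes, 11 (52.4%). They included the repressors PER1, PER3, CRY1 and CRY2, the nuclear receptors NR1D1 and NR1D2, the E-box repressors BHLHE40 and BHLHE41, and the output activators DBP and HLF. PER2 and TEF had a region with 12 lists inside the gene, with a listed start 166 and 662 bp from its centre. Of 20 clock kinases, ligases and cofactors none had one.

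Among 22 clock outputs, 4 had a recurrent region at an end. They were NAMPT, of NAD synthesis, KLF11, a transcription factor, PPP1R3C, a glycogen-targeting subunit of protein phosphatase 1, and TSPAN4, a tetraspanin. Of 30 MYC targets and ribosome biogenesis genes 5 had one: the cell cycle kinase CDK4, LDHA of glycolysis, the nucleolar proteins NCL and NPM1, and RRP9, of rRNA processing. Among 30 lysosome and autophagy genes there were 4, at LAMP1, FNIP1, RRAGC and UVRAG. Glucocorticoid-induced genes had 2 of 23 (PER1 and CEBPB), glycolysis and glucose genes 2 of 23 (LDHA and G6PC3), E-box factors and their partners 2 of 26 (HIF1A and HES1), and cytosolic ribosomal proteins 1 of 25 (RPL27). Cell cycle genes had 0 of 26, and the osteoblast markers had 0 of 11. Of 15 markers of other cell types 1 had one, the neuronal gene SNAP25. A region at a gene says nothing of its expression.

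The share of regions with a Myc peak was higher among recurrent BMAL1 regions than among the others. A Myc peak overlapped 406 of the 897 (45.3%, Wilson 95% interval 42.0 to 48.5%), against 6.32% of all merged regions and 4.58% of those with 1 to 9 lists. The share was 70.7% with 12 lists, 44.2% with 11, 34.1% with 10, 22.3% with 9 and 1.55% with 1. Since the regions differ in width, the centres were also compared: a Myc peak was centred within 250 bp of the region's centre in 42.3% of recurrent regions, against 16.3% of regions with 7 to 9 lists. These shares come from 1 Myc library and intervals cover counting error only.

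**Figure D2:**
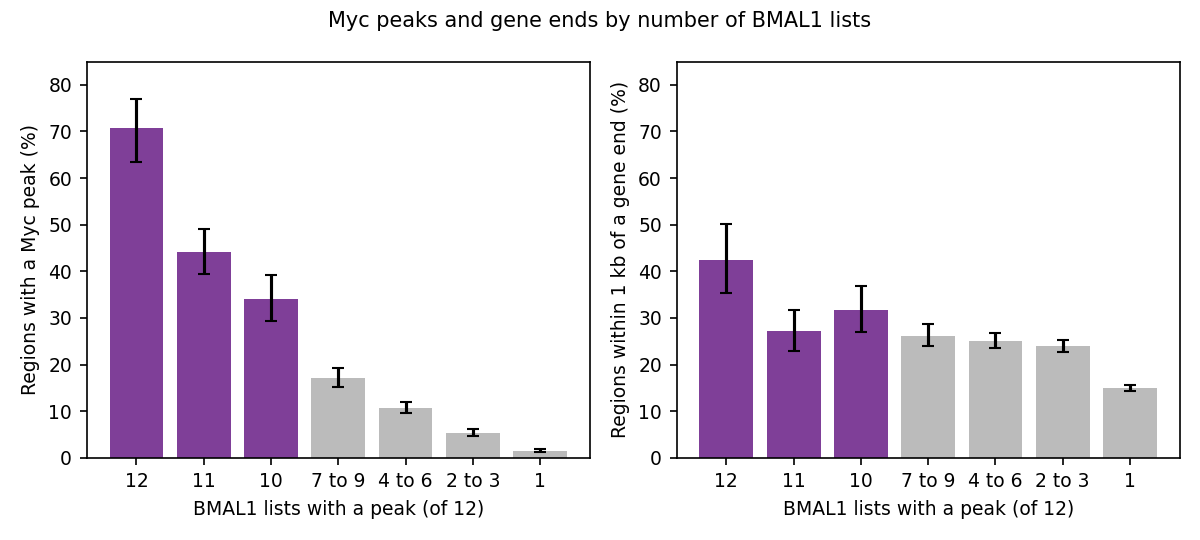
Share of merged regions with a Myc peak (left) and within 1 kb of a gene end (right), in percent, by the number of BMAL1 lists with a peak. Purple bars are the recurrent regions and error bars are Wilson 95% intervals. The Myc share was 70.7% at 12 lists and 1.55% at 1, while the gene-end share was 42.5% at 12 lists, 27.1% at 11 and 26.2% at 7 to 9.

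Of the 50 Myc peaks with the highest score, 44 lay in recurrent BMAL1 regions, while of all 2487 Myc peaks 443 (17.8%) did. The highest of all was near CD300LB, in a region with 11 lists 6.6 kb from the gene. The second lay at NR1D1, the third in another region near NR1D1, and peaks at TEF and DBP were tied at rank 5. BHLHE40 had rank 7, PER2 rank 9 and NR1D2 rank 10. Among the 167 regions with 12 lists, 118 had a Myc peak. Over those the mean BMAL1 rank and the Myc rank had Spearman's rho of 0.447, given as a description (n = 118 regions, all from the same libraries). A Myc peak was present at 48 of the 50 regions with the best mean BMAL1 rank and at 23 of the 50 with the lowest.

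Some of the 167 regions with 12 lists had no Myc peak. The 5 of them with the best mean rank were in KCNIP1, at PPRC1, in SPTBN1, in MAP4 and at RELL1. The region at PPRC1 is centred inside the neighbouring gene LDB1. KCNIP1 encodes a potassium channel partner, and PPRC1 a coactivator related to PGC-1. Their mean ranks over 6 times ran from 45.9 to 86.8 in U2OS_CHR and from 38.3 to 96.2 in U2OS_WT.

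Promoter windows, each 250 bases before to 50 after a listed start, were searched for 8 motifs on both strands. Listed starts covered 15842 of the 20033 protein-coding genes, and promoters on chromosome 8, which held 40 of the recurrent regions, were not analysed here. Of the 350 windows that touched a recurrent region, 171 held CACGTG (48.9%, Wilson 95% interval 43.7 to 54.1%), against 7.23% of all 34943 windows. The share was 44.0% at regions with 7 to 9 lists, 31.3% with 4 to 6, 10.5% with 1 and 5.08% at no BMAL1 region. The variants CACGTT and CACGCG stood in 10.9% and 31.4% of the recurrent windows, against 5.35% and 11.4% of all. Their shares were 10.2% and 25.3% at regions with 7 to 9 lists and 6.95% and 20.7% at regions of 1 list. The GC box GGGCGG stood in 73.7%, against 44.9% of all, and it was nearly as frequent (70.6%) in windows with a region of 1 list. CCAAT stood in 41.1%, against 34.6% of all and 42.4% at regions of 1 list. The AP-1 element TGACTCA stood in 8.86% (6.31 to 12.3%), against 4.96% of all and 5.44% (3.65 to 8.03%) at regions with 7 to 9 lists. The glucocorticoid receptor half-site AGAACA was in 7.71%, against 14.8% of all, and it was similarly rare (8.67%) in windows with a region of 1 list. A pair of CACGTG elements with 6 or 7 bases between them was in 0 of the 350 windows, which allows a share of up to 0.857% (3 counts of 350), and in 0.0143% of all. The motifs were counted separately, so a window could hold several and matches could overlap. Windows could overlap too, as at G6PC3 and MTHFD1L, so the same element could count more than once. The shares thus count windows, not regions, and the intervals treat windows as independent. The sequence of regions away from listed starts was not analysed here.

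**Figure D3:**
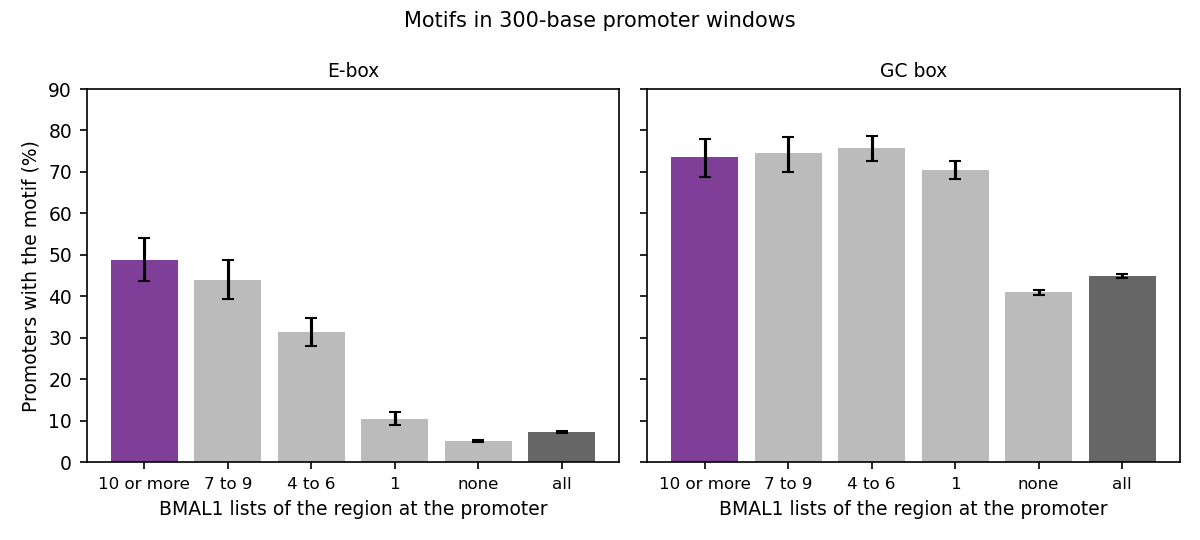
Share of 300-base promoter windows with the E-box (left) and the GC box (right), in percent, by the number of lists of the BMAL1 region that the window touched; none marks windows with no region and the dark bar all windows. Error bars are Wilson 95% intervals, with overlapping windows counted separately. The E-box share was 48.9% at recurrent regions and 5.08% with no region, while the GC box was in 73.7% at recurrent regions and 70.6% at regions of 1 list.

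The lines were then compared by the order of the scores. Scores of different lists are not on a common scale. Each of the 167 regions with 12 lists was therefore ranked within each list by its highest peak, from 1 for the highest score to 167. The short U2OS_WT list of 8 h largely set this choice, since 537 regions had a peak in the other 11 lists. Regions without a peak there were left out, however high they scored in U2OS_CHR. The calls and their 2 directions thus hold for the 167 alone. The ranks were turned to normal scores (quantiles of a normal distribution) and the lines compared with limma, with time as a block and Benjamini-Hochberg adjustment over the 167. Of these, 72 passed an adjusted p of 0.05 (43.1%). In U2OS_CHR 36 ranked higher (21.6%) and 36 lower (21.6%). Ranks sum to the same total in every list, so a region that moves up pushes others down and the numbers in the 2 directions are linked. At 32 regions (19.2%) the ranks of the lines did not overlap. Leaving out any 1 time gave 53 to 64 calls. The scores crowded at 3100, which the highest peak of a region held in 6 lists. In 3 lists, U2OS_CHR at 4 h and U2OS_WT at 4 and 20 h, 3 regions tied at it and shared a mean rank, and only 3 peaks, in 2 lists, scored more. The ties touched NR1D1, TEF, the DBP start and the region next to PER1, whose order cannot be told apart there.

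**Figure D4:**
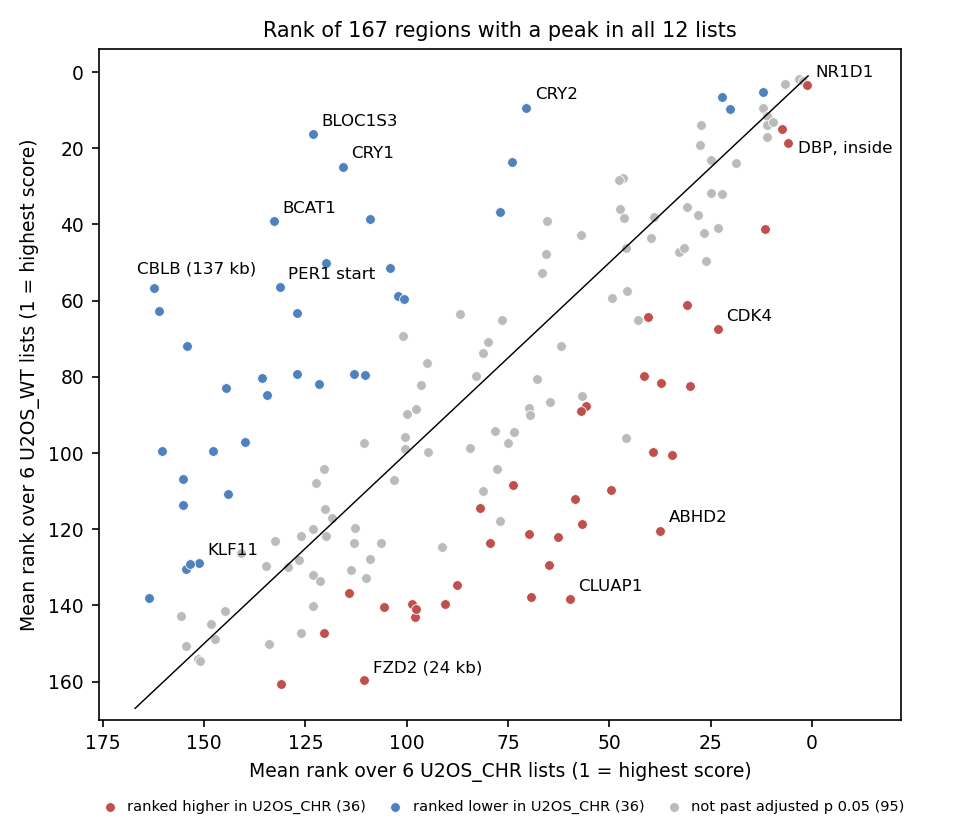
Mean rank of the 167 regions with 12 lists over the 6 U2OS_CHR lists (horizontal) and the 6 U2OS_WT lists (vertical), 1 being the highest score, with axes reversed so that strong regions lie at the upper right. Red regions ranked higher in U2OS_CHR (36), blue ones lower (36) and grey ones did not pass the limma test; the line marks equal ranks.

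CRY1, CRY2 and the region at the PER1 start, 3 repressor genes of the core clock, ranked lower in U2OS_CHR. CRY2 ranked 62, 48, 76, 82, 80 and 75 in U2OS_CHR at 0 to 20 h, against 8, 6, 6, 8, 22 and 6 in U2OS_WT. The ranks of the lines did not overlap, and the 22 at 16 h was the 1 U2OS_WT value outside the best 8. The mean rank was 70.5 ± 13.0 in U2OS_CHR and 9.33 ± 6.28 in U2OS_WT (SD, n = 6 times; limma, adjusted p = 8.3e-05). The highest CRY2 peak, whose score set the rank, had a median width of 844 bp in U2OS_CHR and 2128 bp in U2OS_WT.

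CRY1 ranked 101, 100, 157, 102, 134 and 100 in U2OS_CHR, against 20, 25, 14, 17, 38 and 35 in U2OS_WT. Again no U2OS_CHR list reached the lowest U2OS_WT rank. The mean was 116 ± 24.2 in U2OS_CHR and 24.8 ± 9.79 in U2OS_WT (SD, n = 6 times; limma, adjusted p = 0.00048).

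The region at the PER1 start ranked 153, 135, 130, 124, 131 and 115 in U2OS_CHR, against 54, 48, 51, 45, 87 and 54 in U2OS_WT. The lines did not overlap here (limma, adjusted p = 0.00043). It spans 4963 bp and held 3 to 8 peaks per list in U2OS_CHR and 2 to 5 in U2OS_WT. The highest of them was centred within 500 bp of the start in 1 of 6 U2OS_CHR lists and in 5 of 6 U2OS_WT lists. The median centre lay 2041 bases before the start in U2OS_CHR and 171 bases before it in U2OS_WT. Its ranks therefore compare peaks of different places. The separate region next to it, 12 bp further upstream at chr17:8156012-8157452, ranked 8, 12, 4, 4, 7 and 5 in U2OS_CHR, against 2, 4, 2, 2, 4 and 4 in U2OS_WT, and did not pass (limma, adjusted p = 0.054). At CRY1, BLOC1S3, CDK4 and CLUAP1 the highest peak was centred within 500 bp of the start in all 12 lists. At CRY2 it was so in 6 of 6 U2OS_CHR and 4 of 6 U2OS_WT lists. The CRY2 region spans 4375 bp and held 1 to 3 peaks per list. Its median centre lay 326.5 bases before the start in U2OS_WT and -38 in U2OS_CHR (negative is past the start), a gap of 364.5 bp. Of the 72 regions that passed, the median centres of the 2 lines lay more than 500 bp apart at 2, PER1 and PPAT.

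The other regions at core clock genes had smaller differences in mean rank. NR1D1 ranked 1, 3, 1, 1, 1 and 1 in U2OS_CHR, against 4, 4, 4, 4, 3 and 2 in U2OS_WT (limma, adjusted p = 0.016). NR1D1 was at the score of 3100 in 4 U2OS_CHR and 2 U2OS_WT lists. On the log2 scale of the scores its difference turned to -0.044. A region inside THRA, a thyroid hormone receptor gene, 22.2 kb from NR1D1, ranked 45, 18, 57, 76, 21 and 81 in U2OS_CHR, against 109, 117, 118, 82, 125 and 107 in U2OS_WT, with no overlap (limma, adjusted p = 0.0086). It did not pass when each list ranked those of the 897 regions with a peak in it (limma, adjusted p = 0.051). A region inside DBP ranked 5, 5, 9, 7, 4 and 6 in U2OS_CHR, against 17, 16, 17, 21, 12 and 28 in U2OS_WT, with no overlap (limma, adjusted p = 0.0066). The region at the DBP start had a mean rank of 2.33 in both lines. It was tied at 3100 in 1 list of each line, and ranks so close to the top leave little room for a difference to show. BHLHE40 had means of 7.50 ± 4.04 in U2OS_CHR and 15.0 ± 4.69 in U2OS_WT (SD, n = 6 times; limma, adjusted p = 0.044), and it did not pass with any 1 time left out. The region between STXBP4 and HLF, 26.6 kb from the HLF start, had means of 12.2 in U2OS_CHR and 5.33 in U2OS_WT (limma, adjusted p = 0.033), and it did not pass without 4, 8, 12 or 16 h.

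PER3 had means of 11.2 in U2OS_CHR and 11.5 in U2OS_WT. NR1D2 had 12.0 in U2OS_CHR and 9.33 in U2OS_WT. TEF had 3.17 in U2OS_CHR and 1.83 in U2OS_WT, and PER2 had 27.5 in U2OS_CHR and 14.0 in U2OS_WT. A region 10.1 kb from the BHLHE41 start had 9.67 in U2OS_CHR and 13.0 in U2OS_WT. None of these 5 passed, PER2 at a limma adjusted p of 0.0505. BHLHE41 and HLF had gene-end regions with 10 lists, which were not ranked. A peak was called there at 6 U2OS_CHR and 4 U2OS_WT times for BHLHE41, and at 4 U2OS_CHR and 6 U2OS_WT times for HLF.

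**Figure D5:**
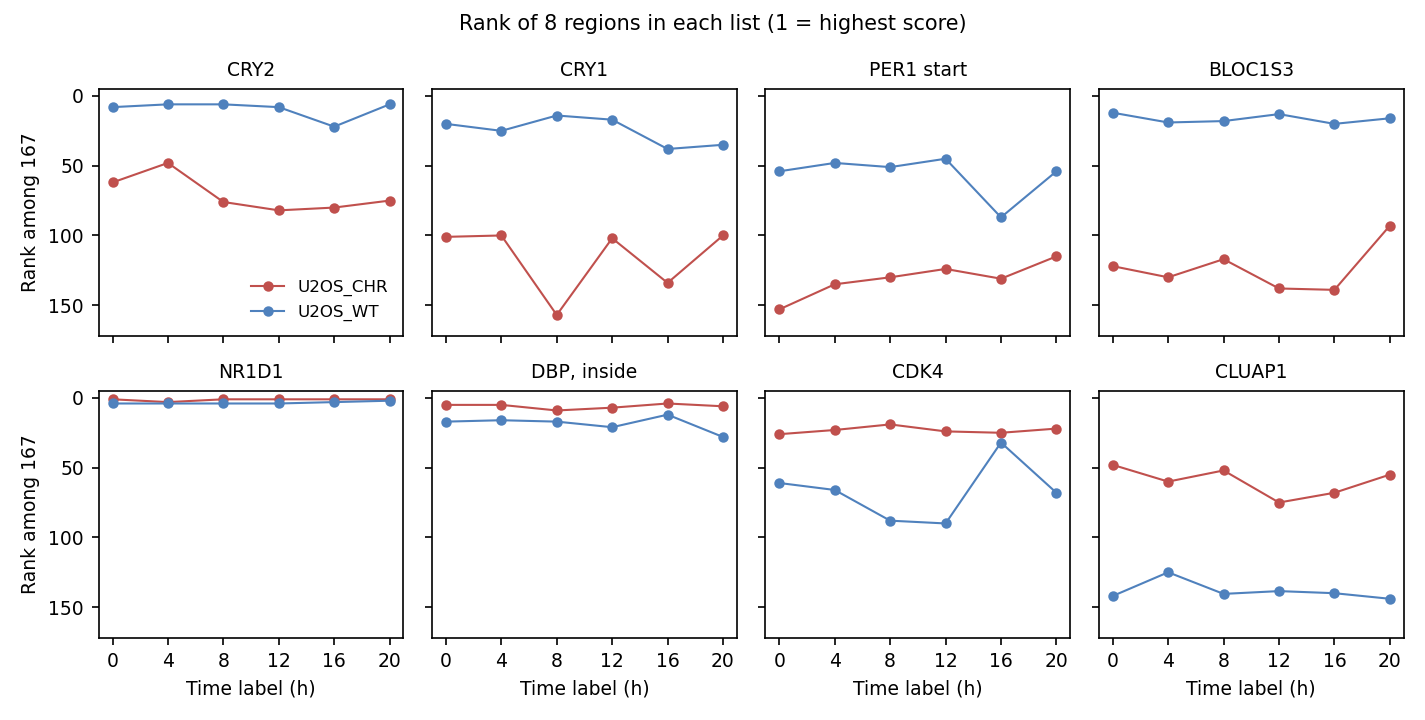
Rank of 8 regions among the 167 (vertical, 1 at the top) at each labelled time in hours, U2OS_CHR in red and U2OS_WT in blue. In the top row (CRY2, CRY1, the PER1 start and BLOC1S3) U2OS_CHR lies below U2OS_WT at all 6 times; in the bottom row it lies above at all 6 times for the region inside DBP, CDK4, CLUAP1 and NR1D1, the last of which turned the other way on log2 scores.

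The test used normal scores, on which a step near either end of the order weighs more than one in the middle. Outside the clock, the largest differences on that scale towards lower rank in U2OS_CHR were at BLOC1S3, inside BCAT1 and at regions centred more than 2 kb from any gene end. Distances are from the centre of a region. A region 137 kb from CBLB (chr3:106005860-106006547) ranked 158.5 to 167 in U2OS_CHR, median 162, against 31 to 80, median 58, in U2OS_WT (limma, adjusted p = 2.9e-05). A region 2.10 kb from CDC25B, a phosphatase of cell cycle entry, had means of 161 in U2OS_CHR and 62.8 in U2OS_WT (limma, adjusted p = 6.1e-05). Neither had a Myc peak. BLOC1S3, which encodes a subunit of a complex for lysosome-related organelles, shares its region with TRAPPC6A. That region ranked 122, 130, 117, 138, 139 and 93 in U2OS_CHR, against 12, 19, 18, 13, 20 and 16 in U2OS_WT (limma, adjusted p = 2.9e-05). Regions near NGFR and SYS1 and one inside BCAT1, an enzyme of branched-chain amino acid breakdown, had mean ranks of 154, 160 and 133 in U2OS_CHR, against 71.8, 99.4 and 39.2 in U2OS_WT. At lower ranks in both lines, KLF11 had means of 151 in U2OS_CHR and 129 in U2OS_WT and the RRP9 region 164 in U2OS_CHR and 138 in U2OS_WT (limma, adjusted p = 0.018 for KLF11 and 0.00037 for RRP9), and KLF11 did not pass without 4, 12 or 16 h.

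In the other direction, CDK4 ranked 26, 23, 19, 24, 25 and 22 in U2OS_CHR, against 61, 66, 88, 90, 32 and 68 in U2OS_WT, with no overlap (limma, adjusted p = 0.0043). CDK4 and the region inside DBP did not pass when each list ranked those of the 897 regions with a peak in it. That order held 193 regions in U2OS_WT at 8 h and 897 in U2OS_CHR at 4 h, so the lists ranked different sets. A region in CLUAP1, a gene of cilium transport, ranked 48, 60, 52, 75, 68 and 55 in U2OS_CHR, against 142, 125, 140.5, 138.5, 140 and 144 in U2OS_WT (limma, adjusted p = 0.00014). A region in ABHD2, 20.0 kb from its listed start, had means of 37.5 ± 3.73 in U2OS_CHR and 120 ± 21.6 in U2OS_WT (SD, n = 6 times; limma, adjusted p = 0.0004). On mean ranks this was the largest difference in this direction. On normal scores the largest was at a region 23.8 kb from FZD2, which encodes a WNT receptor, with means of 110.5 in U2OS_CHR and 160 in U2OS_WT and a normal-score difference of 1.60. Regions in SERF2 and ADAMTS1, a secreted protease, and one at S100A6, a calcium-binding protein, had means of 69.3, 64.9 and 62.7 in U2OS_CHR, against 138, 129.5 and 122 in U2OS_WT.

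The 2 groups of regions were also set side by side by their place. Of the 36 that ranked lower in U2OS_CHR, 21 had a gene end within 1 kb (58.3%, Wilson 95% interval 42.2 to 72.9%). Of the 36 that ranked higher, 9 had one (25.0%, 13.8 to 41.1%), and of the 95 that did not pass 43.2%. With listed starts counted as well, the shares were 58.3% (42.2 to 72.9%) of those that ranked lower and 30.6% (18.0 to 46.9%) of those that ranked higher, and these intervals overlap. Regions centred inside a gene and away from its ends numbered 5 in the first group and 16 in the second. A Myc peak was present at 19 of the 36 that ranked lower (52.8%, 37.0 to 68.0%) and at 29 of the 36 that ranked higher (80.6%, 65.0 to 90.2%), and these 2 intervals overlap. Among the promoter windows that touched them, which could overlap, 15 of 31 held CACGTG in the group that ranked lower. In the group that ranked higher 8 of 13 did. These shares were not tested, since regions of the same libraries are not replicates. The median width of the highest peak, whose score also set the rank, moved with the rank and is not separate evidence. It was 583.5 bp in U2OS_CHR and 708.5 bp in U2OS_WT for regions that ranked lower, and 710 bp in U2OS_CHR and 585 bp in U2OS_WT for those that ranked higher.

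No change over time that the lines shared passed. With the lines as the 2 libraries of each time, 0 of the 167 regions passed limma's F test over the 6 times (0%) and 24 had an unadjusted p under 0.05. A cosine with a period of 24 h gave 0 calls and 17 at that unadjusted level. The smallest adjusted p (limma, 0.16) was at AFG3L2, a gene of a mitochondrial protease. It ranked 167, 165, 139.5, 160, 135 and 164 in U2OS_CHR at 0 to 20 h and 163.5, 156, 52, 58, 89 and 122 in U2OS_WT. Its best ranks were thus at 8 and 12 h in U2OS_WT. A rank within a list cannot show a change that all regions share, and the count of regions with a peak, lowest at 8 h in both lines, was not tested here.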

How the data were processed

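BMAL1 was mapped in 12 libraries and Myc in 1. Each of the 13 peak lists held a position and a score per peak. Per the file headers and labels, the score deposited by the authors has no stated definition, and its lowest value was 50. The build is hg38 and MACS 1.4.2, HOMER 4.10.3 and bedtools were used, per the submitters' processing notes, without a stated role. The sources used here do not give the aligner or the calling control.

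Scores were used within a list alone. Gene ends (no strand), listed starts and promoters were taken from RefSeq tables of GRCh38.p14, the assembly of hg38. Of 265 listed gene symbols 264 were matched. Python 3.11.15, pandas 2.3.3, SciPy 1.17.1, R 4.3.3 and limma 3.58.1 were used, and the merging and the model were tested on simulated data. The regions and gene lists were chosen with earlier results of these data known. Regions were named by rule: those at core clock and clock output genes, the best mean ranks, the largest line differences in each direction, the smallest p over times, the highest Myc scores, the best without a Myc peak or a near gene end, and up to 3 per other list. PPAT and THRA were named after their values were seen, and 1 region that the rule names is not reported here. The alternatives tried covered a higher score, list length, the number of lists, overlaps and windows, the scaling of scores, the pairing and each time left out.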

Additional observations from a re-analysis of the deposited data

Results flagged for a closer look

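Among 104 sets of 6 libraries examined, 16 had 1 library far from the other 5. The cut-off flags about 1 in 20 sets of independent normal values. Here the sets hold tied ranks, several measures of the same lists and regions named for their ranks. That rate therefore does not apply to the 16. The number of recurrent regions with a peak was 814 in U2OS_CHR at 8 h (others 874 to 897) and 193 in U2OS_WT at 8 h (others 706 to 896). Of the 100 highest peaks of the U2OS_WT list of 8 h, 93 fell in recurrent regions (others 98 to 99). These 3 belong to the shortest list of each line.

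The other flags were single ranks among the 167 regions. Both 4 h flags of NR1D1 and TEF are mean ranks of 3 regions tied at a score of 3100. In U2OS_CHR they were rank 3 for NR1D1 at 4 h (others 1), rank 26 for NR1D2 at 16 h (others 8 to 10), rank 5 for TEF at 16 h (others 2 to 3), rank 26 for the region between STXBP4 and HLF at 12 h (others 7 to 14), rank 22 for the region near SLC25A26 at 8 h (others 34 to 40), rank 50 for ITGB5 at 8 h (others 115 to 143) and rank 31 for the second region near CDC25B at 20 h (others 16 to 21). In U2OS_WT they were rank 22 for CRY2 at 16 h (others 6 to 8), rank 87 for the PER1 start at 16 h (others 45 to 54), rank 4 for TEF at 4 h (others 1 to 2), rank 125 for CLUAP1 at 4 h (others 138.5 to 144), rank 108.5 for ADAMTS1 at 12 h (others 131 to 136) and rank 30 for the region near NR1D1 at 8 h (others 7 to 13).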

How the results depend on the processing

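The line comparison gave 72 calls; it gave 74 on log2 scores (67 of them among the 72), 66 with summed scores, 66 with no replicate block (64 shared) and 53 to 64 with 1 time left out. Over all 897 regions with missing peaks left out 191 were called (21.3%), and over the 614 regions with a peak in the 10 lists without 8 h, a choice made after seeing the data, 144. Of the 72, 38 were called in each of these, with the same direction at all 72 over the 897 and at 71 over the 614. An exact sign-flip test gave 0 calls: 64 of the 167 regions were at its smallest p, 0.031. Benjamini-Hochberg adjustment turned this to 0.082 (sign-flip test), and more regions at that p would have been needed to pass. Of 30 regions that the rule names and that passed, 17 passed under all alternatives except that test, CRY1, CRY2, BLOC1S3 and the PER1 start among them. The difference turned to -0.044 at NR1D1 on log2 scores and to -0.025 at ITGB5 over the 614 regions. The correlation of the lines' deviations at the same time was 0.0028 to 0.31. At 0, 8 and 16 h it was 0.31, 0.19 and 0.22, above the highest with U2OS_WT at another time (0.16, 0.17 and 0.11). At 4, 12 and 20 h it was 0.023, 0.0028 and 0.015, below that highest value (0.18, 0.20 and 0.29). The pairing by time was not tested further. The time comparison gave 0 to 1 calls with 1 time left out, the 1 being AFG3L2 without 12 h. The number of recurrent regions and their Myc share were 357 and 64.1% at scores of 100 or more, 591 and 53.5% at equal list sizes, 554 and 52.2% with 11 or more lists, and 167 and 70.7% with 12; with 9 or more lists the Myc share was 38.5%. With 1 time left out and a peak in 8 of 10 lists there were 907 to 1486 regions with Myc shares of 35.0 to 45.2%. The gene-end share was 42.5% with 12 lists and 41.8% with a 5 kb window, and 30.6 to 32.3% with 1 time left out. Depth is unknown, so shorter lists cannot be told apart from fewer bound sites, and ranks show order within a list, not amounts bound.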
